A study of Mus musculus with 9 samples.

Results

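The SOCS, CIS and Pim genes are among the first genes that a T cell switches on when a cytokine receptor signals. The 7 measured here, Socs1, Socs2, Socs3, Cish, Pim1, Pim2 and Pim3, were taken by name from the 24060 genes of the expression table. That rule reads gene names and no measured value, but the 7 were chosen with earlier results of these data known. All 7 passed the filter on low values (a maximum above 1 TPM, a length-corrected share of all transcripts, in any library), as did 11330 genes in all. RNA was measured in 9 libraries, 3 from each of 3 CD8 T cell clones called R7-I, R7-II and R7-III. The clones come from transnuclear (TN) mice, which were cloned from the nucleus of a single T cell and inherit its rearranged T cell receptor (TCR) genes, so each clone is 1 receptor from 1 founder cell. The lines were kept on BALB/c with intact Rag2, which leaves other lymphocytes in the host. The receptors recognise the same ROP7 peptide of the parasite Toxoplasma gondii on H-2Ld. By the study's own ranking, affinity for the peptide falls in the order R7-I, R7-III, R7-II, and self-reactivity in the order R7-III, R7-I, R7-II. The affinity order comes from purified proteins. With the receptor on the cell membrane, the paper found similar affinities for R7-I and R7-III and a lower one for R7-II. All 9 cultures, of spleen cells, were kept overnight with 10 μM ROP7 peptide in medium with 10 ng/ml recombinant mouse IL-2, and CD3+ CD8+ cells that bound the H-2Ld-Rop7 tetramer were then sorted, to a purity that the labels put at 90% to 95% for every sample. No unstimulated culture was analysed here, so every value below is a level after stimulation and not an induction.

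IL-2 and related cytokines signal through receptor chains that carry Janus kinases (JAKs), which phosphorylate STAT transcription factors. STAT dimers then switch on SOCS and Cish. Their proteins bind the receptor or the kinase through an SH2 domain, also carry a SOCS box, and damp the signal, forming a negative feedback loop. The same STATs induce the Pim kinases, serine/threonine kinases that are active as soon as they are made and that promote survival, translation and growth of activated T cells. All 3 clones received the same added IL-2, and the comparison asks how the level of these response genes differed between the clones. The receptor and its mouse line cannot be told apart, and the clones also differed in Il2 RNA, as given below.

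In R7-II, the clone of lowest affinity, Socs3 was 6.21 times its mean TPM in R7-I and 7.65 times that in R7-III, and Socs2 was also higher, whereas Pim3 was lower than in both other clones and Cish was lower than in R7-I. Socs1, Pim1 and Pim2 passed the test in no comparison. Between R7-II and R7-I, 4 of the 7 genes were called, meaning an adjusted p under 0.01 (limma, adjusted by Benjamini-Hochberg over every tested gene). These were 2 higher and 2 lower in R7-II. Over all genes tested the called share in this comparison was 56.1%, with 40.6% higher and 15.5% lower in R7-II. Between R7-II and R7-III, 3 of the 7 were called, 2 higher and 1 lower in R7-II, beside 53.6% of all genes, 35.6% higher and 18.0% lower. For R7-III versus R7-I, 1 of the 7 was called, lower in R7-III, beside 8.41% of all genes, 6.96% higher and 1.45% lower. The counts lie near these backgrounds and are no result about the 7 genes as a group.

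**Figure D1:**
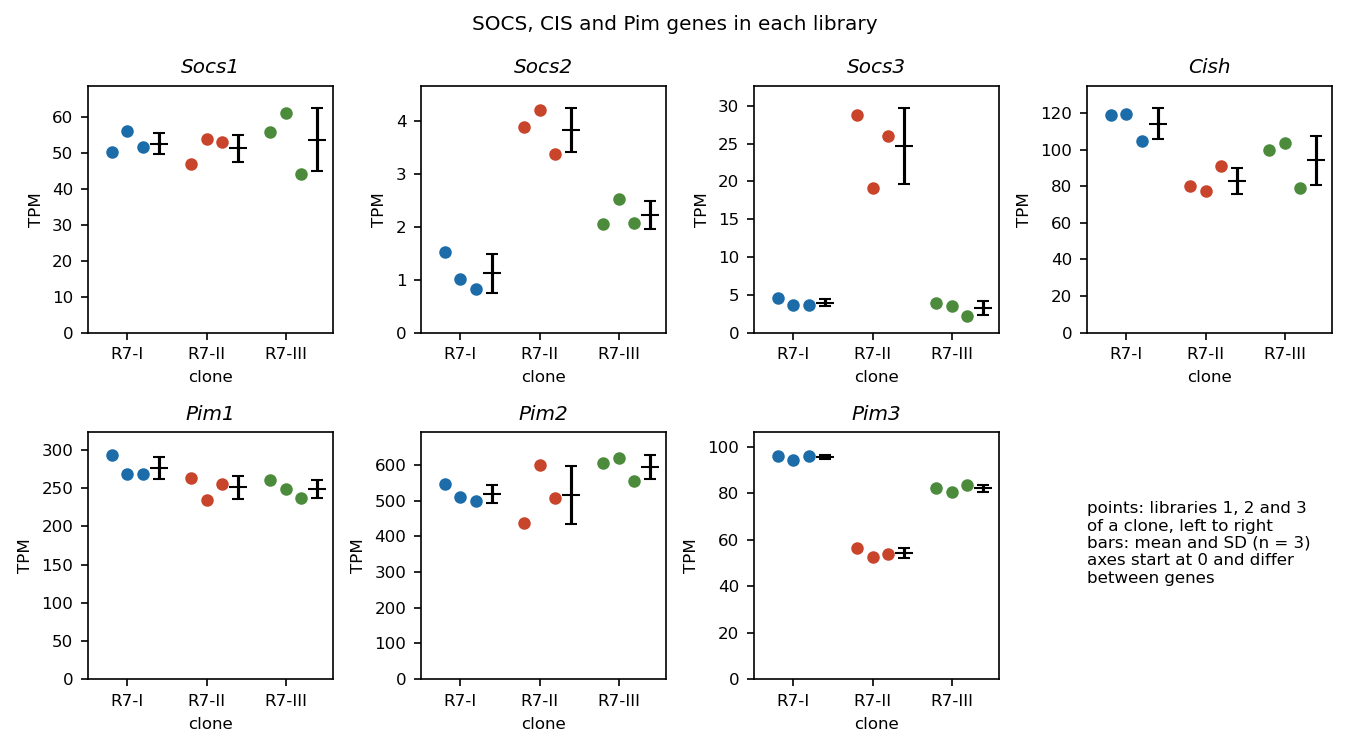
TPM of each gene (vertical axis, from 0, a separate scale for each gene) in the 3 libraries of R7-I (blue), R7-II (red) and R7-III (green), with the mean and SD of each clone in black. Socs3 reached 19.2 to 28.8 TPM in R7-II and stayed between 2.23 and 4.53 TPM in the other 6 libraries, while Pim3 fell into 3 separate ranges with R7-II lowest.

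The libraries of R7-I and R7-II did not overlap in 5 of the 7 genes, beside 71.2% of all genes. Those of R7-II and R7-III did not overlap in 3 of 7, beside 70.6%, and those of R7-III and R7-I in 5 of 7, beside 41.9%. The median log2 fold change of the 7 genes was -0.04 for R7-II versus R7-I, where the median of all genes was 0.17, -0.06 for R7-II versus R7-III, where it was 0.12, and -0.15 for R7-III versus R7-I, where it was 0.04. All fold changes given on the log2 scale are differences of log2(TPM + 1), which understates the change of genes of low level. Socs3, Socs2, Cish and Pim3 kept their direction under either rescaling in both comparisons of R7-II, but the balance over all genes depended on it. Of the genes called between R7-II and R7-I, 72.4% were higher in R7-II in TPM, 47.7% after median-of-ratios scaling and 45.9% after quantile normalization. For R7-II versus R7-III the shares were 66.4%, 47.9% and 49.3%, and for R7-III versus R7-I they were 82.8%, 59.0% and 62.6%. TPM keeps no read depth, so the number of reads behind a value is unknown and no counting error is given.

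Socs3, which binds the receptor chain gp130 and restrains STAT3 signalling by the IL-6 family, differed most. The gene spans chr11:117966079-117970336 (GRCm38.p6). In R7-I it was measured at 4.53, 3.71 and 3.68 TPM in libraries 1, 2 and 3. In R7-II it was measured at 28.8, 19.2 and 26.0 TPM. In R7-III it was measured at 3.97, 3.47 and 2.23 TPM. The lowest R7-II library was thus above every library of the other clones, whose own ranges overlapped. The means were 3.97 ± 0.482 (SD, n = 3) TPM in R7-I, 24.7 ± 4.98 in R7-II and 3.22 ± 0.896 in R7-III. On the log2 scale the difference was 2.35 (95% interval 1.97 to 2.74) for R7-II versus R7-I, with a limma adjusted p of 1.18e-06, and 2.61 (2.22 to 2.99) for R7-II versus R7-III, with a limma adjusted p of 5.64e-07. R7-III versus R7-I gave -0.25 (-0.64 to 0.13) and a limma adjusted p of 0.352. Of the 11330 genes tested, ranked from the largest increase, Socs3 stood at 41 for R7-II versus R7-I and at 27 for R7-II versus R7-III.

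Because R7-II libraries also held more RNA of marker genes of other cell types, those levels are set beside Socs3. The summed level of 9 B cell markers was 8.65 to 16.0 TPM in R7-I, 35.5 to 74.2 in R7-II and 5.14 to 8.07 in R7-III, and all 8 that were tested were called higher in R7-II in both comparisons. The sum of 8 MHC class II genes was 33.3 to 51.8, 116 to 190 and 25.0 to 29.5 TPM in the same order, again with all 8 called higher in R7-II in both. The sum of 12 myeloid markers was 67.1 to 75.9, 108 to 175 and 67.6 to 75.0 TPM, with 9 called higher against R7-I and 11 against R7-III. Most of this sum in R7-I and R7-III was Cst3 alone, at 61.2 to 70.5 TPM in R7-I, 76.0 to 82.2 in R7-II and 59.8 to 67.8 in R7-III. No marker of these 3 lists was at 0 in every library. Lyz1, Csf1r, Itgam, Fcer1g, S100a8, S100a9, Emr1 and Csf3r exceeded 1 TPM only in R7-II libraries, as did Cd22, Blk, Fcer2a and Ciita. They passed the filter only through the clone where they were high, so the counts of calls were partly set by it. Over all tested genes, 40.6% were called higher in R7-II against R7-I and 35.6% against R7-III. Cd79b and Cd79a, the signalling chains of the B cell receptor, were the B cell markers of highest level, at 18.8 ± 6.02 and 14.5 ± 5.76 TPM (SD, n = 3) in R7-II. Within R7-II the B cell sum was 74.2, 35.5 and 56.8 TPM in libraries 1, 2 and 3, the same order as Socs3. The MHC class II sum was 190, 116 and 187 TPM, also in that order, and the myeloid sum 125, 108 and 175 TPM, in another order. In R7-I the B cell sum was 11.6, 16.0 and 8.65 TPM, and in R7-III 5.14, 7.63 and 8.07 TPM. Neither followed the order of Socs3, nor did the MHC class II sums of these clones. Their myeloid sums did, at 75.9, 73.2 and 67.1 TPM in R7-I and 75.0, 71.3 and 67.6 TPM in R7-III. The part of other cell types in the higher Socs3 and Socs2 was not tested. In RNA of a whole sorted population, fewer cells of a type and less RNA per cell cannot be told apart.

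**Figure D2:**
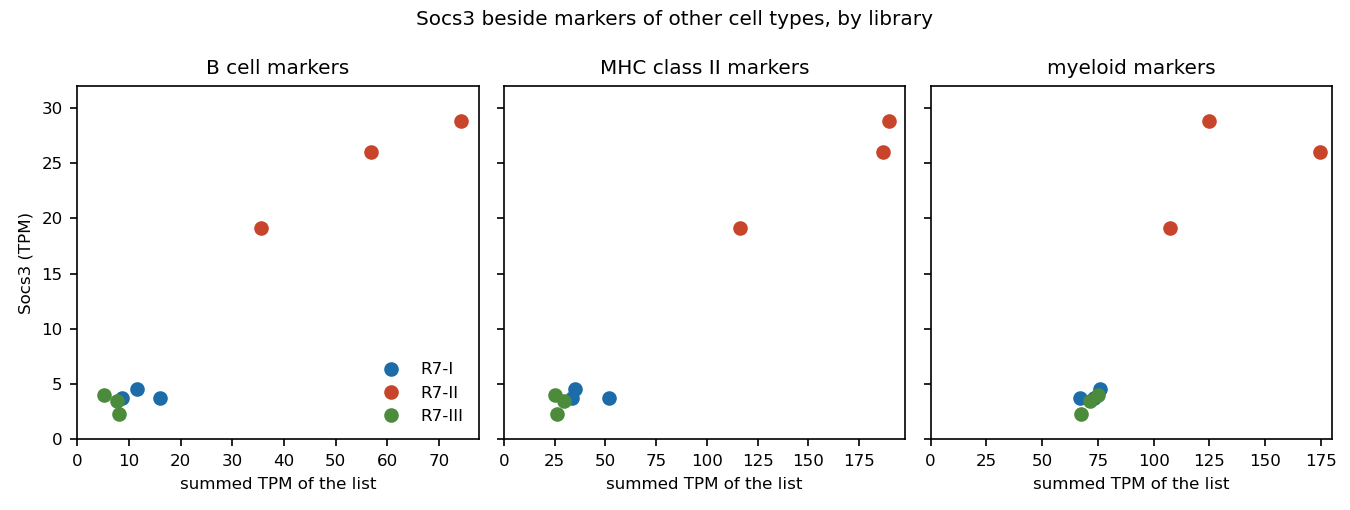
Socs3 (vertical axis, TPM) against the summed TPM of the B cell, MHC class II and myeloid marker lists (horizontal axes), 1 point per library, coloured by clone. The 3 R7-II libraries were highest on both axes in each panel, and the library with the least Socs3 among them, at 19.2 TPM, also had the smallest sum of each list.

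The other marker lists described the sorted cells. The sum of 9 T cell and CD8 genes, such as Lck, the kinase that starts TCR signalling, and Cd8b1, a chain of the CD8 co-receptor, was 2171 to 2254 TPM in R7-I, 3052 to 3187 in R7-II and 2232 to 2367 in R7-III, so the label of CD8 T cells was met in every library. NK cell markers summed to at most 0.17 TPM, with Klra8, Klra4 and Klrb1b at 0 in all 9 libraries and Klrb1c and Ncr1 near 0. The 3 CD4 T cell markers, Cd4 and Zbtb7b the highest, summed to 0.72 to 1.35 TPM in R7-I, 2.18 to 2.94 in R7-II and 1.16 to 1.34 in R7-III. Erythroid genes, led by the globins Hba-a2 and Hba-a1, summed to 22.1 to 73.3, 1.3 to 15.1 and 8.99 to 25.5 TPM. None of the 4 tested passed the limma threshold in any comparison, and 2, 1 and 1 had an unadjusted p under 0.05 in R7-II versus R7-I, R7-II versus R7-III and R7-III versus R7-I. In the other lists the highest markers were Cd74 and H2-Aa for MHC class II and Cst3 and Lyz2 for myeloid cells. Lyz2, a lysozyme of macrophages and neutrophils, averaged 0.45 ± 0.2 TPM in R7-I, 32.9 ± 21.9 in R7-II and 1.89 ± 0.473 in R7-III (SD, n = 3).

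Of the windows from 250 bases before to 50 bases after a RefSeq transcript start, 8.3% of 32851 hold TTCNNNGAA, the palindrome that STAT dimers bind, read on both strands, which are the same for a palindrome. Among the 7 genes, the windows of Socs3 and Cish hold it. In the 30 bases shown for each, the capitals mark the match, and they are shown because these members moved in opposite directions in R7-II versus R7-I with this palindrome near their start.
Socs3, chr11:117969501-117969530 (GRCm38.p6, minus strand): gaaaccagccTTCTTAGAAgggaggggggg
Cish, chr9:107296654-107296683 (GRCm38.p6, plus strand): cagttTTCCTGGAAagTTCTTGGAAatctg
The match of Socs3 lies from -154 to -146 relative to the RefSeq transcript start of its window. That start lies inside the RefSeq span of the gene, and the match lies within an intron of a longer GENCODE transcript. Those of Cish lie at 1 to 9 and at 12 to 20, in the 5′ untranslated part of the first exon. No match was found in the windows of Socs1, Pim1, Pim2 and Pim3, which says only that these letters are not in these windows. TGANTCA, the letters that AP-1 binds, was in 7.81% of all windows and in none of the windows of these genes. The matches are a description and show no binding.

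Socs2, which restrains growth hormone signalling and is induced by STAT5, was the gene of lowest level among the 7. Its gene lies at chr10:95383903-95417321 (GRCm38.p6). It was measured at 1.52, 1.02 and 0.82 TPM in R7-I, at 3.90, 4.21 and 3.39 TPM in R7-II and at 2.06, 2.54 and 2.08 TPM in R7-III. The clones did not overlap in any pair, with R7-II highest, R7-III between and R7-I lowest. The means were 1.12 ± 0.361, 3.83 ± 0.414 and 2.23 ± 0.272 TPM (SD, n = 3), so that R7-II was at 3.42 times R7-I and 1.72 times R7-III. The log2 difference was 1.20 (95% interval 0.90 to 1.50) for R7-II versus R7-I, with a limma adjusted p of 2.17e-05. For R7-II versus R7-III it was 0.58 (0.28 to 0.88), with a limma adjusted p of 0.00306. That call was lost without a filter on low values, after either rescaling and without R7-II replicate 1 or 2 or R7-III replicate 1 or 3, with adjusted p from 0.00112 to 0.0370 over the alternatives. R7-III versus R7-I gave 0.62 (0.32 to 0.92) and a limma adjusted p of 0.0107, just above the threshold, and 0.00693 without R7-I replicate 1.

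Cish encodes CIS, which competes with STAT5 for the IL-2 receptor and also restrains TCR signalling, and it was the most abundant of the 4 feedback genes. It lies at chr9:107296659-107302784 (GRCm38.p6). It was measured at 119, 119 and 105 TPM in R7-I, at 80.2, 77.5 and 90.8 TPM in R7-II and at 99.9, 104 and 78.8 TPM in R7-III. All libraries of R7-II and of R7-III were below those of R7-I, and R7-III replicate 3 lay inside the range of R7-II. The means were 114 ± 8.29, 82.9 ± 7.04 and 94.2 ± 13.5 TPM (SD, n = 3). R7-II versus R7-I gave a log2 difference of -0.46 (95% interval -0.68 to -0.24), with a limma adjusted p of 0.00183, which rose to 0.0270 without a filter on low values. R7-II versus R7-III gave -0.18 (-0.40 to 0.04) and a limma adjusted p of 0.137, but -0.30 and 0.00661 without R7-III replicate 3. R7-III versus R7-I gave -0.28 and a limma adjusted p of 0.0713. The library was not strand-specific, and GENCODE lists antisense transcripts over exons of Cish (Gm17040 and Gm17041) and of Pim1 (Gm26885), whose reads cannot be told apart from those of the gene.

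Socs1, the direct inhibitor of JAK kinase activity that limits interferon and IL-2 signals, was nearly level. Socs1 spans chr16:10783808-10785536 (GRCm38.p6). It was measured at 50.1, 55.9 and 51.6 TPM in R7-I, at 46.9, 53.8 and 52.9 TPM in R7-II and at 55.8, 61.0 and 44.1 TPM in R7-III, and all 3 ranges overlapped. The log2 difference was -0.04 (95% interval -0.26 to 0.19) for R7-II versus R7-I, -0.06 (-0.28 to 0.17) for R7-II versus R7-III and 0.02 (-0.21 to 0.24) for R7-III versus R7-I, with limma adjusted p of 0.750, 0.641 and 0.932. Differences inside these intervals could not be resolved with 3 libraries per clone.

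**Figure D3:**
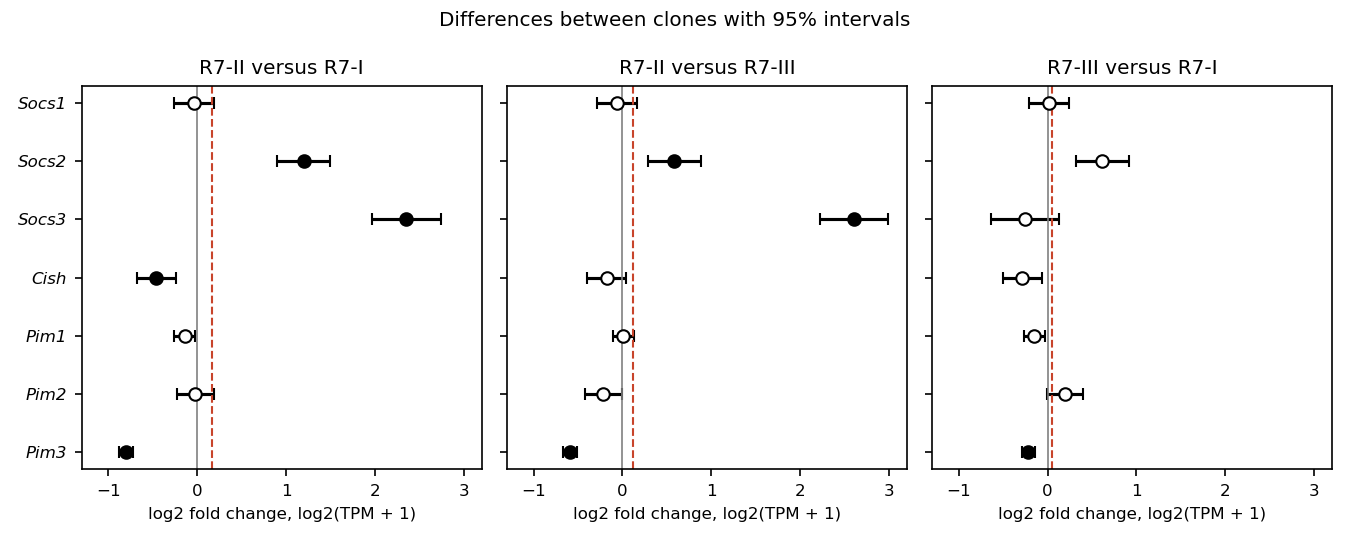
Log2 fold change of each gene (horizontal axis, log2(TPM + 1)) with its 95% interval for the 3 comparisons. Filled points had an adjusted p under 0.01, the grey line is 0 and the dashed red line is the median of all genes tested (0.17, 0.12 and 0.04). Socs3 lay farthest from 0 in both comparisons of R7-II and was not called between R7-III and R7-I.

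The make-up of the 4 feedback genes differed while their sums overlapped. The summed TPM was 172 ± 9.92 in R7-I, 163 ± 9.54 in R7-II and 153 ± 23.1 in R7-III (SD, n = 3). Cish made up 65.1% to 67.9% of the sum in R7-I, 50.1% to 52.5% in R7-II and 60.8% to 61.9% in R7-III. R7-II lay below the other 6 libraries by 13.0 percentage points on average (p = 0.0238 in an exact permutation test, two-sided, where 3 libraries against 6 allow nothing smaller). The test pools R7-I and R7-III as 1 group and treats all libraries as exchangeable, although the Cish shares of R7-I and R7-III did not overlap. Socs3 took 15.2% ± 2.83 in R7-II, against 2.31% ± 0.266 in R7-I and 2.08% ± 0.353 in R7-III. Socs2 took 0.649%, 2.37% and 1.46% on average in R7-I, R7-II and R7-III, and Socs1 30.6%, 31.5% and 34.9%. A share within a library does not depend on how that library is scaled, but the shares of 1 family sum to 100 and so do not vary independently.

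**Figure D4:**
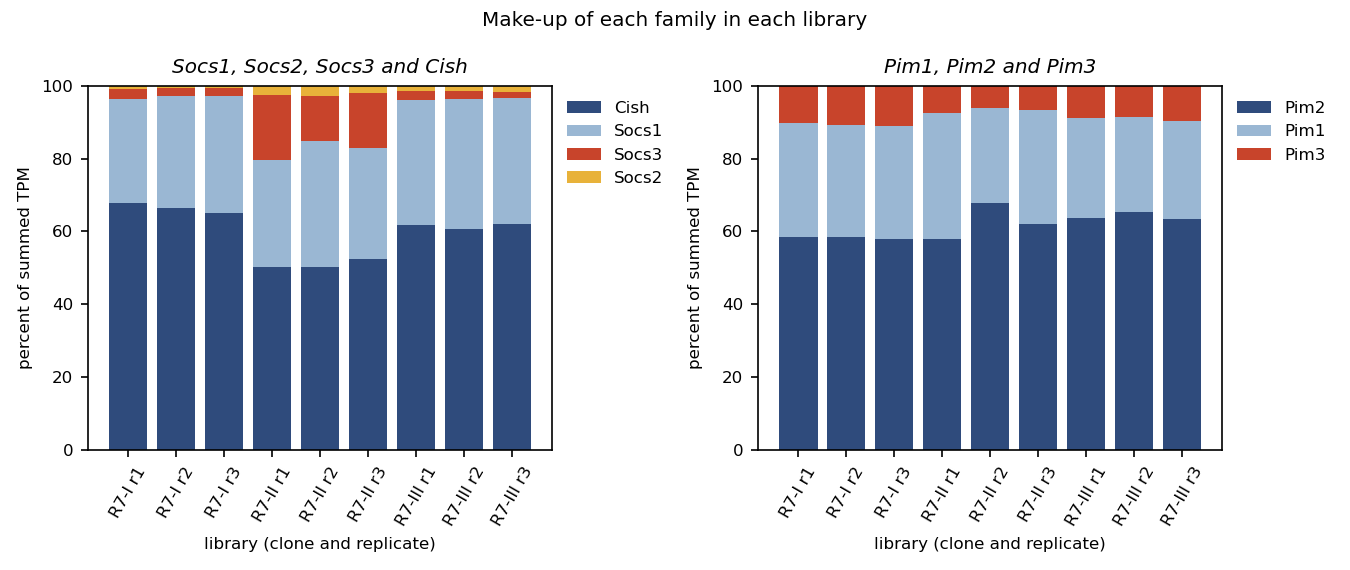
Percent of the summed TPM taken by each gene in each of the 9 libraries (clone and replicate r1 to r3), for the SOCS and CIS genes and for the Pim kinases. The Socs3 band was 12.4% to 18.0% in the R7-II libraries and at most 2.59% in the others, and the Pim3 band was 5.93% to 7.49% in R7-II and at least 8.50% in the others.

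Pim2 and Pim1 were the most abundant of the 7 genes, at rank 229 and rank 562 of 24060 genes by mean TPM, while Pim3 stood at rank 2246, below Cish at 1792. Pim3 changed in the opposite sense to Socs3. Its gene lies at chr15:88862194-88865726 (GRCm38.p6). It was measured at 96.3, 94.6 and 96.2 TPM in R7-I, at 56.7, 52.7 and 53.8 TPM in R7-II and at 82.6, 80.7 and 83.6 TPM in R7-III. The 3 ranges did not overlap and fell in the order R7-I, R7-III, R7-II. The means were 95.7 ± 0.924, 54.4 ± 2.07 and 82.3 ± 1.49 TPM (SD, n = 3), so that R7-I was at 1.76 times R7-II and R7-III at 1.51 times R7-II. The log2 difference was -0.80 (95% interval -0.88 to -0.73) for R7-II versus R7-I, with a limma adjusted p of 5.52e-08, and -0.59 (-0.67 to -0.51) for R7-II versus R7-III, with a limma adjusted p of 3.13e-07. For R7-III versus R7-I it was -0.22 (-0.29 to -0.14), with a limma adjusted p of 0.00234. That last call was lost without a filter on low values and when R7-I replicate 1 or 3 or R7-III replicate 1 or 2 was left out, with adjusted p from 2.93e-04 to 0.0149 over the alternatives.

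Pim1, the family member best known as a STAT5 target, was measured at 293, 268 and 268 TPM in R7-I, at 263, 234 and 256 TPM in R7-II and at 261, 249 and 237 TPM in R7-III. Its gene lies at chr17:29490785-29496111 (GRCm38.p6). R7-I lay above both other clones without overlap, and R7-II and R7-III overlapped. The log2 difference for R7-II versus R7-I was -0.14 (95% interval -0.26 to -0.02) with a limma adjusted p of 0.0344, not called, although it was -0.32 with an adjusted p of 4.34e-04 after median-of-ratios scaling. R7-II versus R7-III gave 0.01 and a limma adjusted p of 0.878, and R7-III versus R7-I -0.15 and 0.0714.

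Pim2, whose level is set largely by transcription and which supports T cell survival, was measured at 547, 511 and 499 TPM in R7-I, at 437, 601 and 508 TPM in R7-II and at 606, 620 and 555 TPM in R7-III. It spans chrX:7878306-7883432 (GRCm38.p6). R7-II had the widest range and overlapped both other clones, whereas R7-III lay above R7-I without overlap. The log2 difference was -0.02 (95% interval -0.23 to 0.19) for R7-II versus R7-I, -0.21 (-0.42 to -0.01) for R7-II versus R7-III and 0.19 (-0.01 to 0.40) for R7-III versus R7-I, with limma adjusted p of 0.855, 0.0615 and 0.178. Without R7-II replicate 2, which had the highest Pim2 of its clone, R7-II versus R7-III gave -0.33 and an adjusted p of 0.00187.

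Together the 3 kinases summed to 891 ± 39.5 TPM in R7-I, 821 ± 65.7 in R7-II and 925 ± 43.0 in R7-III (SD, n = 3), and the R7-II libraries overlapped those of both other clones. Pim1 made up 31.0%, 30.8% and 26.9% of the sum on average, and ran from 26.4% to 34.7% in R7-II and from 26.2% to 31.3% in the other 6 libraries. The R7-II mean was 1.81 percentage points higher (exact permutation test, two-sided, p = 0.476) and 0.158 points lower without R7-II replicate 1. Pim2 made up 58.2%, 62.5% and 64.2%, and Pim3 10.7%, 6.67% and 8.91%.

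The genes upstream of these responses were read from lists of the pathway, starting with the cytokines. Beside the counts of these lists, the called share of all genes was 56.1% for R7-II versus R7-I and 53.6% for R7-II versus R7-III. Of 12 ligand genes, 6 were above the filter, and 5 of them were lower and 1 higher in R7-II in both of its comparisons, with median log2 differences of -1.77 and -1.80. Il2, the T cell growth factor, averaged 153 ± 12.0 TPM in R7-I, 48.8 ± 11.6 in R7-II and 196 ± 26.6 in R7-III (SD, n = 3). Ifng, the gene of interferon gamma, averaged 149, 36.6 and 122 TPM, and Il3 12.4, 0.257 and 20.5 TPM, the largest fall of the list at -3.42 on the log2 scale against R7-I. Osm, a cytokine of the IL-6 family, was the 1 gene higher in R7-II, at 9.72 ± 0.372 TPM against 6.03 ± 1.76 in R7-I and 6.21 ± 0.145 in R7-III, a call that was lost after either rescaling. The cultures thus held the same added IL-2, but the cells sorted from them differed between clones in the level of Il2 RNA.

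Receptor chains moved both ways. Of 18 tested, R7-II had 12 higher and 4 lower against R7-I, and 11 higher and 4 lower against R7-III, with median log2 differences of 0.53 and 0.41 beside 0.17 and 0.12 over all genes. Il2ra, the alpha chain of the IL-2 receptor, averaged 377 ± 14.1 TPM in R7-I, 260 ± 13.8 in R7-II and 357 ± 11.6 in R7-III, a log2 difference of -0.54 against R7-I (limma adjusted p = 1.95e-06). Il2rg, the chain shared by the receptors of IL-2, IL-7 and IL-15, was 0.38 higher on the log2 scale in R7-II versus R7-I (limma adjusted p = 4.95e-06), and Il2rb gave 0.06 (0.187). Ifngr2, a chain of the interferon gamma receptor, had the largest log2 difference of the list against R7-I, 1.26, at 6.43 TPM in R7-I and 17.0 in R7-II, and Il12rb2, a chain of the IL-12 receptor, the smallest, -1.70, at 30.4 and 8.74 TPM.

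Among the kinases, Jak1 averaged 122 ± 1.64 TPM in R7-I, 190 ± 11.8 in R7-II and 120 ± 2.85 in R7-III, a log2 difference of 0.62 against R7-I (limma adjusted p = 7.07e-07). Of the 4 Janus kinases, R7-II had 3 higher against R7-I and 1 against R7-III. After either rescaling 2 were higher and 1 lower against R7-I, and 1 higher and 1 lower against R7-III. Jak3, which binds Il2rg, was 0.22 higher than in R7-I, a call lost after either rescaling, and 0.00 from R7-III. Jak2 gave -0.16 against R7-I with a limma adjusted p of 0.0163. Of 7 STAT genes, R7-II had 4 higher and 2 lower against R7-I, and 3 higher and 3 lower against R7-III. After median-of-ratios scaling 2 were higher and 3 lower in both comparisons. After quantile normalization 4 were higher and 3 lower against R7-I, and 3 higher and 2 lower against R7-III. Stat5a and Stat5b, which carry the IL-2 signal, moved apart. Stat5a fell by 0.40 and Stat5b was 0.39 higher on the log2 scale in R7-II versus R7-I, with limma adjusted p of 1.16e-04 and 5.24e-05. Stat4, the factor downstream of IL-12, fell most, by 0.73, and Stat2, which acts in the type I interferon response, was 0.93 higher. Stat6, the most abundant, was 0.21 higher, a call lost after median-of-ratios scaling. Stat3, the factor that Socs3 restrains, gave -0.12 against R7-I with a limma adjusted p of 0.0186 and -0.16 against R7-III with 0.00490.

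**Figure D5:**
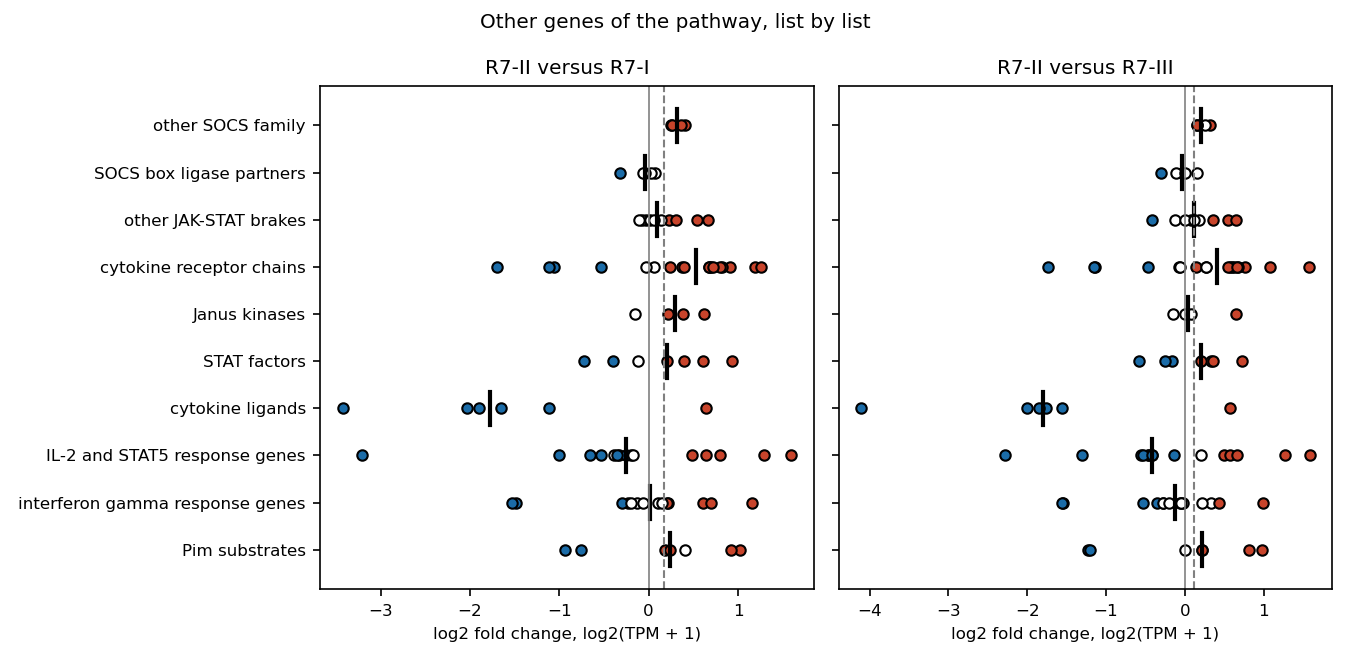
Log2 fold change (horizontal axes, log2(TPM + 1)) of each tested gene of the 10 pathway lists for R7-II versus R7-I and versus R7-III. Red and blue points had an adjusted p under 0.01, white points did not, short black bars are list medians and the dashed line is the median of all genes. The cytokine ligands lay lowest, with medians of -1.77 and -1.80.

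The other negative regulators had smaller log2 differences than Socs3. All 4 remaining SOCS genes, Socs4 to Socs7, were called higher in R7-II against R7-I and 2 of them against R7-III, with median log2 differences of 0.31 and 0.21, but after either rescaling only Socs4 kept its call against R7-I and Socs6 changed sign after quantile normalization. Against R7-III, 1 kept its call after median-of-ratios scaling and 0 after quantile normalization, where 1 had an unadjusted p under 0.05. The count against R7-I was 2 when R7-I replicate 1 or 2 or R7-II replicate 1 or 2 was left out, and the count against R7-III was 1 when any library but R7-I replicate 3 was left out. Socs4 averaged 28.6 ± 1.30 TPM in R7-I, 38.4 ± 2.41 in R7-II and 30.5 ± 2.14 in R7-III (SD, n = 3), a log2 difference of 0.41 against R7-I. Socs7 gave 0.26 and Socs6 0.26. Of 5 partners that join the SOCS box to a ubiquitin ligase, 1 was called, Tceb1 (elongin C), which fell by 0.32 against R7-I and by 0.30 against R7-III. After median-of-ratios scaling 4 were lower against R7-I and 2 were lower against R7-III, whereas after quantile normalization 1 was higher and 2 lower against R7-I. Tceb2 (elongin B), the most abundant, gave 0.07 against R7-I. Of 10 phosphatases, PIAS proteins and adaptors that also restrain JAKs or STATs, R7-II had 4 higher and none lower against R7-I, and 4 higher and 1 lower against R7-III. After median-of-ratios scaling 3 were higher and 4 lower against R7-I. Pias3, an inhibitor of STAT3, rose most, from 3.30 ± 0.565 to 5.78 ± 0.249 TPM against R7-I, a call lost after quantile normalization, while Pias2 gave -0.11. Ptprc, the phosphatase CD45, averaged 524, 648 and 504 TPM in R7-I, R7-II and R7-III, and Ptpn6, the phosphatase SHP-1, averaged 260, 247 and 329 TPM.

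Genes known to respond to the same signals moved both ways. Of 15 IL-2 and STAT5 response genes tested, R7-II had 5 higher and 8 lower against R7-I, and 5 higher and 9 lower against R7-III, with median log2 differences of -0.25 and -0.41. The list does not part genes that these signals raise from genes that they lower. Gzmb, the killing protease granzyme B, fell most, from 698 ± 175 TPM in R7-I to 73.8 ± 15.2 in R7-II, with 366 ± 91.0 in R7-III. Bcl2, a survival protein, rose most, from 11.6 ± 0.287 to 37.2 ± 4.29 TPM. Myc and Ccnd2, which drive growth and cell cycle entry and were the most abundant of the list, fell by 0.25 and 0.33 on the log2 scale against R7-I. Of 14 interferon gamma response genes, R7-II had 4 higher and 3 lower against R7-I, and 2 higher and 4 lower against R7-III. After median-of-ratios scaling 2 were higher and 4 lower against R7-I, and 2 higher and 5 lower against R7-III. After quantile normalization 3 were higher and 4 lower against R7-I, and 2 higher and 4 lower against R7-III. Gbp2 and Igtp, interferon-induced GTPases, were 1.16 and 0.70 higher against R7-I and Iigp1, of the same kind, fell by 1.53. Psmb8, an immunoproteasome subunit, averaged 184, 205 and 211 TPM in R7-I, R7-II and R7-III and gave 0.15 against R7-I with a limma adjusted p of 0.123. Of 7 genes whose proteins Pim kinases phosphorylate, 4 were higher and 2 lower in both comparisons of R7-II. After median-of-ratios scaling 2 were higher and 2 lower against R7-I, and 3 higher and 2 lower against R7-III. Cdkn1a, the cell cycle inhibitor p21, averaged 63.0 ± 13.6, 128 ± 20.4 and 64.1 ± 1.74 TPM in R7-I, R7-II and R7-III, Cdc25a, a phosphatase that drives the cell cycle, 57.4, 29.5 and 70.5 TPM, and Eif4b, a translation factor, 483, 550 and 470 TPM. The log2 difference of Eif4b against R7-I was 0.19 in TPM but 0.01 after median-of-ratios scaling (limma adjusted p = 0.701), and its call was lost.

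For R7-III versus R7-I, where 8.41% of all genes were called, the genes of these lists called higher in R7-III were 1 of 18 receptor chains, 2 of 4 Janus kinases, 2 of 6 ligands, 1 of 10 other brakes, 1 of 15 IL-2 and STAT5 response genes and 1 of 7 Pim substrates, and none was called lower by limma. The 7 STAT genes, 14 interferon gamma response genes, 4 other SOCS genes and 5 SOCS box partners gave 0 calls, with 3, 5, 1 and 2 at an unadjusted p under 0.05. Jak3 was 0.21 higher in R7-III on the log2 scale (limma adjusted p = 0.00423), a call lost after either rescaling (0.0330 and 0.0295), and Il3 was 0.68 higher (6.87e-04). Pim3, the 1 member called between these clones, sat between R7-I and R7-II in its level.

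For each gene, the 3 genes whose profile over the 9 libraries was most like it were named by the smallest root-mean-square difference between log2(TPM + 1) profiles, each centred on its own mean, among the 11330 genes tested. For Socs3 these were Slamf6, a receptor of the SLAM family, Tcp11l2 and Sema4f, with differences of 0.150, 0.186 and 0.190. Slamf6 averaged 4.51, 27.2 and 3.74 TPM in R7-I, R7-II and R7-III, close to the levels of Socs3. For Socs2 they were Arhgap18, Skap1 and Vim, at 0.138, 0.146 and 0.151, and Vim, an intermediate filament protein, averaged 14.7, 34.5 and 22.3 TPM. For Cish they were Selp, Rps15a-ps4 and Ccdc102a, at 0.0682, 0.0992 and 0.105. Selp averaged 2.50, 1.59 and 1.84 TPM in R7-I, R7-II and R7-III. At such levels, and at those of Socs2, adding 1 TPM compresses the change, so likeness here is not likeness of fold change. For Pim3 they were Ehd1, Itgav and Eef1e1, at 0.0415, 0.0443 and 0.0535, and Ehd1, an endocytic recycling protein, averaged 146, 85.4 and 131 TPM. For Pim1 they were Esf1, Katnbl1 and Anapc10, at 0.0365, 0.0384 and 0.0469, for Pim2 Scrn2, Dtd2 and Nt5c, at 0.0660, 0.0757 and 0.0798, and for Socs1 Gpr162, Shfm1 and Gas8, at 0.0812, 0.0834 and 0.0860. Genes that vary little lie close to many others by this measure, as may Pim1, Pim2 and Socs1. A small difference alone does not mark a flat profile. The differences for Pim3, whose 3 clone ranges did not overlap, were below those for Pim2 and Socs1.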

How the data were processed

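Polyadenylated RNA of 9 sorted CD8 T cell libraries was sequenced by the authors as 100-bp single-end reads that were not strand-specific. The authors deposited TPM values per gene symbol, estimated with RSEM 1.2.11 on mm10 per the submitters' processing notes. RSEM made the alignment and the gene-level estimates, and no source used here names the aligner it called. The authors tested counts with DESeq2 1.8.1, but since TPM values are not counts, limma took its place. TPM keeps no depth, and the study's methods give a typical number of reads per sample but none for single libraries, so depth per library is unknown.

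From the deposited values, log2(TPM + 1) was taken for 11330 genes, those reaching more than 1 TPM in any of these 9 libraries. The study set the same limit over all samples of its experiment, which included unstimulated cells, so its gene set differed. One limma 3.58.1 fit in R 4.3.3 (lmFit, eBayes with trend, no covariate) held all 9 libraries, with Benjamini-Hochberg adjustment over all genes and the study's threshold of 0.01. Shares were compared with exact permutation tests of R7-II against R7-I and R7-III pooled (scipy 1.17.1, Python 3.11.15). The fit was tested on simulated data. The labels call the libraries biological replicates without naming separate animals, so p-values measure the spread between libraries, which may be partly technical. No batch is given. Alternatives were pseudocounts of 0.1 and 5, no filter, a mean TPM of at least 1, median-of-ratios and quantile scaling, no trend, a threshold of 0.05, only the clones compared, a replicate block and each library left out.

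The members, gene lists and tests were chosen with earlier results of these data known. Named genes were the members, the IL-2 receptor chains, Jak1, Jak3, Stat3, Stat5a and Stat5b, the largest and smallest change against R7-I and the 2 highest levels of each pathway list, the 3 genes most like each member and the 2 highest markers of each marker list; Klra8, Klra4, Klrb1b and Jak3 in R7-III were named after their values were seen. One gene that the rule named is not reported here. Positions and promoter windows are RefSeq's on GRCm38.p6, the build of mm10. A RefSeq window was present for 6 of the 7 members. Unstimulated cells, counts and PCR values were not analysed here.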

Additional observations from a re-analysis of the deposited data

How the results depend on the processing

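Socs3 and Pim3 in both comparisons of R7-II, and Socs2 in R7-II versus R7-I, kept their direction and their call under all 19 alternatives. Of 399 values of the members over the alternatives, 363 kept direction and call, 13 lost the call, 7 gained it and 16 changed sign, all 16 of values that were never called. After quantile normalization Pim2 in R7-II versus R7-I was 0.071 and Socs1 in R7-III versus R7-I was -0.013, and after median-of-ratios scaling Pim1 in R7-II versus R7-III was -0.12 and Socs1 in R7-III versus R7-I was -0.030. With 1 library left out, Socs1 ranged from -0.074 to 0.022 (R7-II versus R7-I), -0.19 to 0.042 (R7-II versus R7-III) and -0.080 to 0.15 (R7-III versus R7-I), Pim2 from -0.14 to 0.092 in R7-II versus R7-I, Pim1 from -0.026 to 0.059 in R7-II versus R7-III, and the difference of the Pim1 share from -0.158 to 4.02 percentage points. Members called between R7-III and R7-I were 0 without a filter, 2 at a threshold of 0.05 and 0 to 1 with 1 library left out. All genes called there were 953, 347 without a filter, 2142 at 0.05 and 436 to 1120 with 1 library left out. The cause of these changes was not tested. Deviations of same-numbered libraries from their clone means correlated at -0.0449 to 0.0888 over all tested genes. Libraries of different number and clone gave -0.0948 to 0.0649. A correlation over all genes cannot tell whether single genes share an effect of the replicate number. With the replicate block 5, 3 and 1 members were called, and Pim1 in R7-II versus R7-I gained a call (adjusted p = 0.00986).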
